A study of Mus musculus with 4 samples.

Results

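The 8 genes described here, Ltf, Lcn2, Camp, Ngp, Chil3, Cybb, Elane and Mpo, code for proteins stored in or built into neutrophil granules, and were taken by name from 31053 measured features. They were followed in single-cell RNA libraries of viable CD45-positive cells sorted from lung or lung tumor of C57BL/6 mice that were wild type (WT) or lacked Rab37 (Rab37 KO), a small GTPase of the Rab family that directs vesicle traffic. The groups were WT given Matrigel, Rab37 KO given Matrigel, WT given LLC cells and Rab37 KO given LLC cells, all taken at day 14 of tumor establishment, and the Matrigel groups are called normal lung and the LLC groups tumor here. LLC is a transplanted mouse lung carcinoma line, and the sources used here do not say how many mice were pooled into a library or in which cells Rab37 was deleted. The sort was set to leave out CD45-negative cells, but some cells with epithelial, endothelial or fibroblast markers were still found. Each group was 1 library, so the spread between replicates is unknown, no test was made, and every interval is an exact 95% interval for counting error only.

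Neutrophils pack their killing proteins into granules while they mature in the bone marrow. Myeloperoxidase (Mpo) and neutrophil elastase (Elane) are made first, at the promyelocyte stage, and fill the azurophil granules. Lactoferrin (Ltf), lipocalin 2 (Lcn2), the cathelicidin precursor (Camp) and neutrophilic granule protein (Ngp) are made later and fill the specific granules, whose genes need the factor C/EBP epsilon. Cybb codes for gp91phox, the catalytic subunit of the NADPH oxidase, which sits in specific granule membranes and also serves macrophages and monocytes. Chil3 codes for the chitinase-like protein Ym1, found in neutrophil precursors and secreted in quantity by alveolar macrophages. Mature neutrophils that have left the marrow are known to have largely ended transcription of most granule genes.

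After cells with fewer than 200 genes or more than 10% mitochondrial UMIs (unique molecular identifiers, 1 per counted RNA molecule) were left out, 5242 cells remained in normal WT, 4726 in normal Rab37 KO, 647 in tumor WT, with 2729 in tumor Rab37 KO, and every set of 4 values below keeps this order. Median depth ran from 3999 to 6566 UMIs per cell. Rab37 stood at 8.60 and 4.79 CPM (UMIs scaled to a common library total) in the WT libraries and at 0.374 and 0.266 CPM in the Rab37 KO libraries, so the labels held for the targeted gene. Both normal libraries held cells with Xist only and cells with Y-linked UMIs only, whereas tumor WT held 411 cells with Xist only and 0 with Y-linked UMIs only, and tumor Rab37 KO 1 and 1664, so that sex and genotype cannot be told apart in tumor. No pair of libraries shared more than 6 cell barcodes. Neutrophil-like cells, named from 10 markers that include no member, numbered 377, 556, 208 and 1293, with median depths of 2235, 2608, 2144 and 3467 UMIs. The granulocyte alarmin S100a8 was found in 99.1% to 99.5% of them, and the surface marker Ly6g in 7.16%, 8.63%, 17.8% and 23.3%. In normal lung nearly all came from cluster 3, and in tumor most came from clusters 5, 7 and 18, so that tumor and normal values describe differently clustered cells.

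All 8 members matched the RefSeq promoter table of GRCm38.p6. The 4 specific granule genes are shown because cells rich in Ltf, Camp and Ngp, in which Lcn2 was also higher, are described below. Ltf lies at chr9:111019271-111042767 (plus strand, mm10), Camp at chr9:109847379-109849617 (minus strand), Ngp at chr9:110419747-110423012 (plus strand) and Lcn2 at chr2:32384633-32388252 (minus strand). The 250 bases upstream of each RefSeq start follow, 5′ to 3′ on the gene's strand, from chr9:111019042-111019291 for Ltf, chr2:32387740-32387989 for Lcn2, chr9:109849457-109849706 for Camp and chr9:110419558-110419807 for Ngp. Capitals mark matches on either strand to the C/EBP-type letters TTGCNNAA or the ETS-type letters GAGGAA, 2 patterns that do not overlap in these windows.
Ltf: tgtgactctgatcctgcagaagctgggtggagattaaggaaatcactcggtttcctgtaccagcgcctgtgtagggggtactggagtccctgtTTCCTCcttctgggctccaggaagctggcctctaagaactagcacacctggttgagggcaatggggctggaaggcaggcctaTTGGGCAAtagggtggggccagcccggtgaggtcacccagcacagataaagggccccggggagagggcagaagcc
Lcn2: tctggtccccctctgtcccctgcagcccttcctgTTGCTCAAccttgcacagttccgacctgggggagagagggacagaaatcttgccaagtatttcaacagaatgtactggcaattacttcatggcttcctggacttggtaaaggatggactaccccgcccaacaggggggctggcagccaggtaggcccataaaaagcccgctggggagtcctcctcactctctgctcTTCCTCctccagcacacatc
Camp: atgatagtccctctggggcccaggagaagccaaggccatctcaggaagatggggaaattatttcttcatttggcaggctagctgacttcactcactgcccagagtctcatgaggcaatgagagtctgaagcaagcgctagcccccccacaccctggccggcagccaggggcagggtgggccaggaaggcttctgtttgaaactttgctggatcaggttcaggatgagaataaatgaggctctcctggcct
Ngp: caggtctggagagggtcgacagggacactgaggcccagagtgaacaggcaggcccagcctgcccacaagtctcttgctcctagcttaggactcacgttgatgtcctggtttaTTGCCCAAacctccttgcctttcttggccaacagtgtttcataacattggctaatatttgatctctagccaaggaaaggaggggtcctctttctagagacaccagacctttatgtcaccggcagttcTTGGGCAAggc
The C/EBP-type letters stood once in Ltf (bases -75 to -68 from the start), once in Lcn2 (-216 to -209), in 2 places in Ngp (-138 to -131 and -11 to -4) and nowhere in this window of Camp. The ETS-type letters stood once each in Ltf (-157 to -152) and Lcn2 (-20 to -15). Neither pattern was found in Chil3 or Cybb, and the azurophil genes Elane and Mpo held 1 and 2 ETS-type matches. Among 32851 promoter windows of the same length, 9.56% held the C/EBP-type and 23.3% the ETS-type letters. A match describes letters only and shows no binding.

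The specific granule genes were held by very few cells. Camp, which codes for the only cathelicidin of the mouse, had 238, 2228, 455 and 13967 UMIs in the 4 libraries, in 7, 16, 9 and 147 cells. A single neutrophil-like cell of 4439 UMIs held 192 of the 238 in normal WT (80.7%), and 2, 2 and 14 cells held 50% of the UMIs in the other 3 libraries. Ngp, which codes for a cystatin-like granule protein, had 536, 2488, 1310 and 22786 UMIs in 19, 30, 35 and 371 cells. The cell with the most Camp also had the most Ngp in normal WT, where it held 58.0% of the library's Ngp UMIs. Ltf, which codes for the iron-binding protein lactoferrin, had 98, 1669, 239 and 7011 UMIs in 18, 22, 14 and 150 cells, and 2, 2, 2 and 17 cells held 50% of them. For all 3 genes, 90% of the UMIs of a library lay in at most 76 cells.

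Lcn2, which codes for a lipocalin that binds bacterial siderophores, was spread far more widely. It had 1290, 3377, 2570 and 28455 UMIs in 297, 435, 159 and 1304 cells, and 90% of them lay in 181, 213, 57 and 497 cells. Neutrophil-like cells held 69.7%, 75.0%, 70.4% and 72.3% of its UMIs. When each cell was thinned at random to 1500 UMIs, with the shallower cells left out (24, 26, 43 and 46 neutrophil-like cells), Lcn2 was seen in 45.3%, 46.0%, 52.1% and 57.5% of neutrophil-like cells, and unthinned in 51.5%, 52.5%, 52.9% and 68.3%. In T-like cells of normal lung, which should lack it, the thinned share was 0 of 1601 cells (which allows up to 0.187%) and 0.205%, so the neutrophil share lay above the background of free RNA. Ngp was seen after thinning in 1.70%, 2.45%, 11.5% and 12.9% of neutrophil-like cells, Camp in 1.13%, 1.32%, 1.82% and 5.61%, and Ltf in 1.98%, 1.13%, 1.21% and 5.29%.

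**Figure D1:**
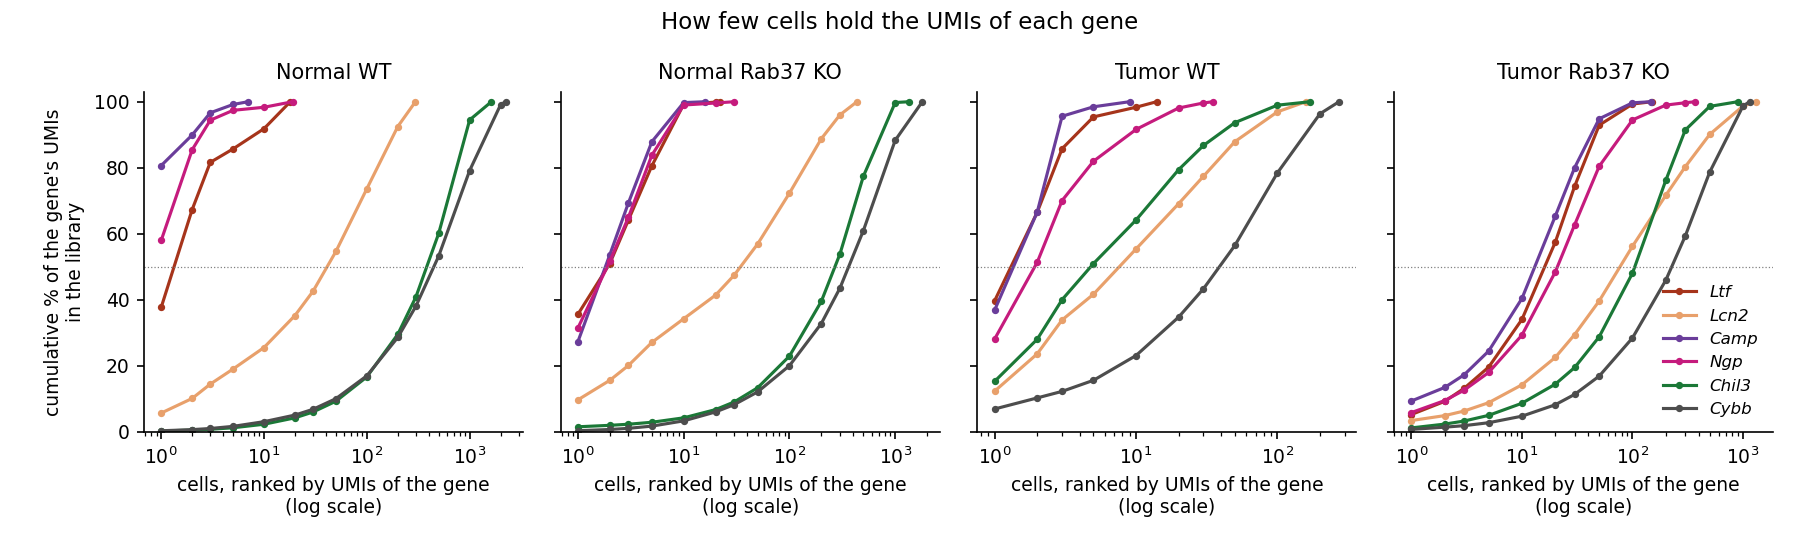
Cumulative percent of a library's UMIs of each of 6 members (vertical) against the number of cells, ranked from most to least UMIs of that member (horizontal, log scale), with 1 panel per library and 1 line per member. The lines of Camp, Ltf and Ngp reach 50% within 1 to 22 cells, whereas Cybb needs 40 to 453.

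Chil3 and Cybb were mainly genes of other cells. Chil3 had 164547, 143245, 10420 and 52548 UMIs, of which 0.0267%, 0.226%, 0.701% and 2.45% lay in neutrophil-like cells. Its level was highest among the named classes in alveolar macrophage-like cells, at 12403, 13728, 20800 and 14455 CPM, and next in classical monocyte-like cells at 1709, 2588, 1407 and 2354 CPM, except in tumor WT, where macrophage-like cells stood at 2248 CPM. In that class and library a single cell held 32.7% of the Chil3 UMIs. Neutrophil-like cells stood at 49.8, 209, 128 and 186 CPM, above T-like cells of normal lung at 21.1 and 24.8 CPM. In cells thinned to 1500 UMIs, 6.23%, 7.17%, 5.45% and 8.10% of neutrophil-like cells held a Chil3 UMI, beside 3.19% and 3.22% of T-like cells of normal lung. Reads of the near-identical Chil4 could be split with Chil3, and Chil4 held 3, 0, 0 and 0 UMIs.

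Cybb had 26424, 21993, 2626 and 11336 UMIs, of which 0.129%, 0.705%, 1.87% and 9.58% lay in neutrophil-like cells. Alveolar macrophage-like cells stood at 1504, 1489, 2108 and 1214 CPM, classical monocyte-like cells at 1368, 1473, 820 and 1148 CPM and nonclassical monocyte-like cells at 1368, 1309, 1253 and 1169 CPM. Alveolar macrophage-like cells stood highest of the 3 in each library, though their interval met that of classical monocyte-like cells in normal Rab37 KO and that of nonclassical monocyte-like cells in tumor Rab37 KO, and the 2 monocyte-like classes did not keep 1 order. Macrophage-like cells stood lower, at 632, 631, 697 and 402 CPM, and B-like cells at 219, 247, 329 and 192 CPM. Plasmacytoid dendritic cell-like cells of normal lung reached 1006 and 1364 CPM. Neutrophil-like cells stood at 38.5, 100, 86.2 and 157 CPM, below every class just named, with intervals that met only in tumor Rab37 KO with those of the B-like class, and above the T-like cells of normal lung at 9.73 and 9.90 CPM.

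**Figure D2:**
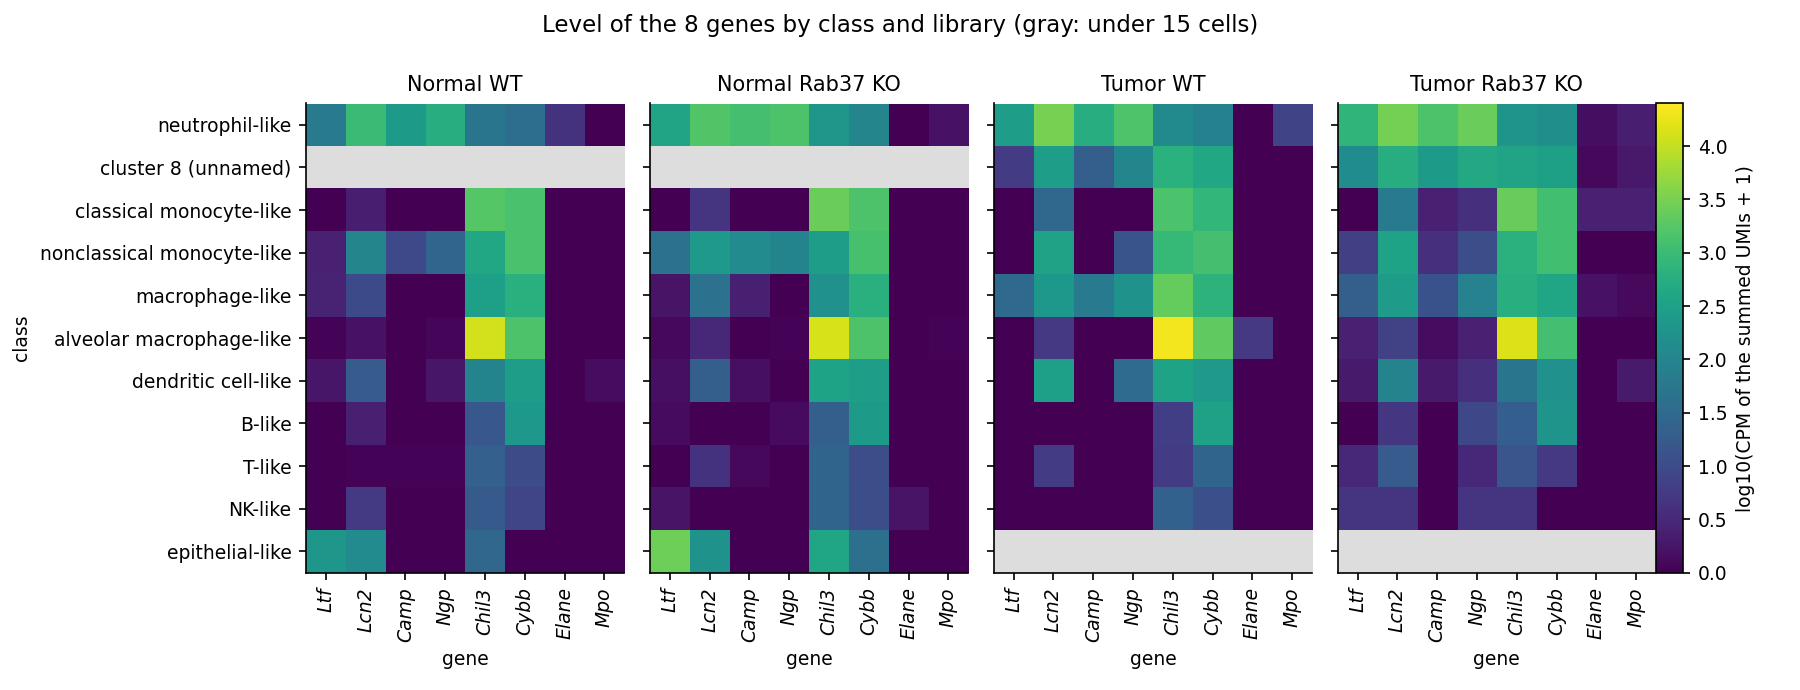
Level of each member by class and library, as log10 of summed CPM plus 1 in color, with gray where a class had under 15 cells in a library. Lcn2, Camp and Ngp are brightest in the neutrophil-like rows. Ltf is brightest in the neutrophil-like rows of tumor but in the epithelial-like rows of normal lung. Chil3 and Cybb are brightest in macrophage-like and monocyte-like rows, and Elane and Mpo are near 0 almost everywhere.

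The azurophil genes were close to absent. Elane had 3, 1, 7 and 8 UMIs in 1, 1, 2 and 8 cells, and Mpo had 1, 2, 38 and 21 UMIs in 1, 2, 6 and 19 cells. In neutrophil-like cells Elane had 3, 0, 0 and 3 UMIs, where 0 allows up to 2.38 and 6.49 CPM, and Mpo had 0, 1, 4 and 9 UMIs. A single tumor WT cell of 30255 UMIs, in the unnamed cycling cluster 22, held 33 of the 38 Mpo and 6 of the 7 Elane UMIs of its library. That cell also held 46 UMIs of Prtn3 and 122 of Ctsg, which code for the azurophil proteases proteinase 3 and cathepsin G, and 9 of the proliferation marker Mki67. These companions were looked at after the cell had been found. In tumor Rab37 KO no cell held more than 3 Mpo UMIs or more than 1 Elane UMI.

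Summed over neutrophil-like cells, 6 of 6 measured members were at least 1.5-fold higher in normal Rab37 KO than in normal WT, and 0 were lower. Genes with under 10 UMIs in the 2 libraries together were not measured in this sense, which left out Elane and Mpo. Of all 6046 genes measured there, 16.3% were that much higher and 10.9% that much lower. The median log2 ratio was 1.771 over the members and 0.035 over all genes. Ltf stood at 375 against 66.8 CPM (5.61-fold, 4.29 to 7.47), Camp at 1290 against 250 CPM (5.16-fold, 4.49 to 5.96) and Chil3 at 209 against 49.8 CPM (4.20-fold, 3.06 to 5.89). Ngp was 2.78-fold higher (1499 against 540 CPM), Cybb 2.60-fold (100 against 38.5 CPM) and Lcn2 1.61-fold (1633 against 1017 CPM). With the class of each cell taken from its own markers instead of its cluster, the Cybb ratio was 1.05. The difference rested on few cells. In 2 cells of normal WT and 6 of normal Rab37 KO, Ltf, Camp and Ngp together made up 0.5% of UMIs or more. Without these cells, 0 members were higher and 1 was lower, Ltf at a ratio of 0.218. That ratio rests on 3 Ltf UMIs in Rab37 KO against 8 in WT. Leaving the cells out takes UMIs of Ltf, Camp and Ngp away by its construction. For genes not used to choose these cells, the ratio was then 1.23 for Lcn2 and 1.39 for Chil3. Leaving out instead the 3 cells richest in each member from each library took the ratio to 130 for Camp, 80.6 for Ngp and 14.1 for Ltf, since almost no UMIs of these genes then remained in normal WT. Of the companion genes on fixed lists, 1 of 8 measured specific granule genes was higher, Cd177 at 2.31-fold, and 0 of 5 NADPH oxidase subunits were higher or lower. Cd177, which codes for a neutrophil surface glycoprotein, had 73 against 18 UMIs.

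In tumor, 4 of 7 measured members reached the 1.5-fold limit upward in Rab37 KO against WT and 1 downward, beside 19.5% and 24.8% of 9126 genes. The median log2 ratio was 0.688 over the members and -0.124 over all genes. Camp stood at 1499 against 543 CPM (2.76-fold, 2.46 to 3.1), Ltf at 767 against 297 CPM (2.58-fold, 2.22 to 3.03), Cybb at 157 against 86.2 CPM (1.82-fold, 1.37 to 2.48) and Ngp at 2456 against 1525 CPM (1.61-fold, 1.5 to 1.73). Lcn2 was nearly level, at 2973 against 3183 CPM (ratio 0.934, 0.890 to 0.980, and 1.36 without the 3 cells richest in it in each library), and Chil3 stood at 186 against 128 CPM (1.45-fold, 1.15 to 1.86). The lower member was Mpo, on 9 against 4 UMIs. Without the cells rich in Ltf, Camp and Ngp, Cybb alone was higher, at 1.51-fold on 270 UMIs in Rab37 KO against 16 in WT. Ltf (ratio 0.656, with 9 UMIs in WT) and Mpo (0.157) were then lower, and Ngp turned to a ratio of 0.712, inside the limit. With the unnamed cluster 8 counted as neutrophil-like instead, the Cybb ratio was 1.11. Without the 3 cells richest in each member per library, the ratio was 343 for Camp, 60.1 for Ltf and 7.37 for Ngp. These ratios follow from how few cells held the genes in tumor WT. There, 3 cells rich in Ltf, Camp and Ngp held 98.1% of the Camp and 94.7% of the Ltf UMIs of neutrophil-like cells. In tumor Rab37 KO 69 such cells were found. The sex of the cells and the genotype move together in this comparison, as given above. Of the specific granule companions 2 of 9 were higher, Cd177 at 2.02-fold and the collagenase gene Mmp8 at 1.63-fold, and 0 were lower. Of the gelatinase granule and vesicle companions 3 of 7 were higher (the formyl peptide receptor genes Fpr2 at 2.14-fold and Fpr1 at 1.82-fold, and the integrin gene Itgam at 1.57-fold) and 1 was lower (the tetraspanin gene Cd63, ratio 0.607). Of 5 oxidase subunits, Cyba, whose product pairs with that of Cybb, was lower (ratio 0.649).

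Between tumor and normal lung, 6 of 6 measured members were at least 1.5-fold higher in tumor in WT mice, beside 41.4% of 5553 genes, and 0 were lower, beside 14.8%. Ltf was 4.45-fold higher, Lcn2 3.13-fold, Ngp 2.82-fold, Chil3 2.58-fold, Cybb 2.24-fold and Camp 2.17-fold. In Rab37 KO mice 5 of 7 were higher, beside 39.8% of 9219 genes, and 0 were lower, beside 12.6%. The ratios were 2.05 for Ltf, 2.02 for Mpo on 9 against 1 UMIs (0.280 to 88.4), 1.82 for Lcn2, 1.64 for Ngp, 1.57 for Cybb, 1.16 for Camp and 0.892 for Chil3 (0.789 to 1.01). With cluster 8 counted as neutrophil-like, 2 members were higher in Rab37 KO tumor (Cybb at 2.33-fold and Mpo at 1.79-fold) and Camp was lower (ratio 0.626), with Lcn2 at 0.999, Ngp at 0.9 and Chil3 at 1.40. Without the cells rich in Ltf, Camp and Ngp, the ratios in Rab37 KO were instead 22.1 for Camp and 9.60 for Ngp, and Chil3 was lower at 0.595. That step takes out UMIs of Camp and Ngp by its construction, and it left 1 Camp and 33 Ngp UMIs in normal Rab37 KO. The members' median log2 ratios of 1.432 and 0.713 stood beside 0.373 and 0.345 over all genes. The 4 comparisons use each library 2 times, so their values are given side by side only. Dropping the 3 cells richest in each member from each library left 3 of 6 members higher in WT tumor, with Chil3 at 0.768 and Cybb at 0.999. Of 3 measured azurophil companions 2 were higher and 1 lower in WT tumor. Serpinb1a, which codes for an inhibitor of the azurophil proteases, was 9.95-fold higher (56.3 against 5.66 CPM), and Srgn, which codes for the granule proteoglycan serglycin, was lower at 8875 against 19623 CPM (ratio 0.452). Of 8 measured specific granule companions 3 were higher, among them Cd177 at 6.65-fold and the haptoglobin gene Hp at 2.56-fold, and 2 were lower, Adam8 (ratio 0.419) and the protease inhibitor gene Slpi (0.653). Of 7 measured gelatinase granule and vesicle companions 4 were lower and 0 higher. Their median log2 ratio was -0.855, and the metal transporter gene Slc11a1 was lowest at a ratio of 0.362.

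**Figure D3:**
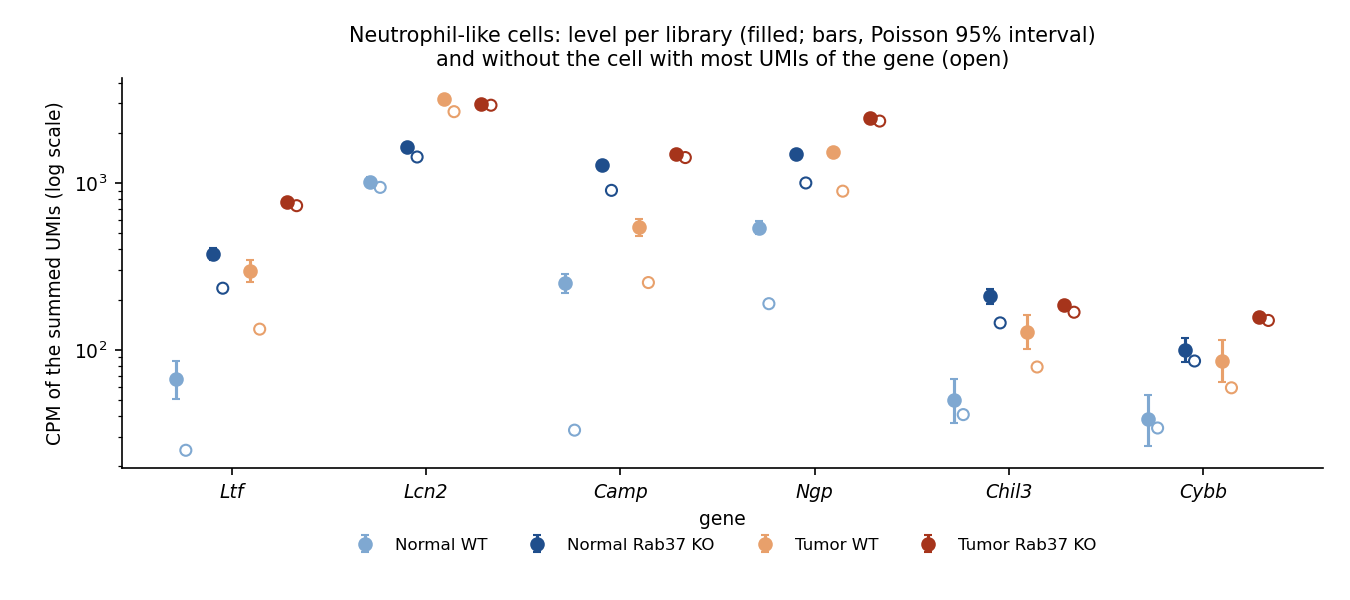
Level of the members in neutrophil-like cells of each library (CPM of the summed UMIs, log scale, bars for the 95% counting interval), with open circles for the level without the cell that held most of that member. Leaving out 1 cell moves Camp in normal WT from 250 to 33.0 CPM and Ltf from 66.8 to 25 CPM, and moves Lcn2 in tumor Rab37 KO only from 2973 to 2924 CPM.

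Neutrophil-like cells in which Ltf, Camp and Ngp made up 0.5% of UMIs or more numbered 2 of 377 (0.531%, 0.0643% to 1.90%), 6 of 556 (1.08%, 0.397% to 2.33%), 3 of 208 (1.44%, 0.298% to 4.16%) and 69 of 1293 (5.34%, 4.18% to 6.71%). They are called granule-rich cells here. They are a range of a score and not a cell type: 34 neutrophil-like cells lay within 2-fold of the limit, 28 of them in tumor Rab37 KO. Granule-rich cells held 95.5%, 99.2%, 87% and 95.6% of the UMIs of the 3 genes in their class, which follows from the choice. Cluster 18 held 69 of the 80. They were deeper than the other neutrophil-like cells, with medians of 5566, 8108, 10935 and 10913 UMIs beside 2234, 2603, 2123 and 3356. Neutrophil markers took a median of 33.2% of their UMIs, beside 11.8% in the others. Markers of T-like, B-like, NK-like, dendritic cell-like and alveolar macrophage-like cells had medians of 0. Classical monocyte markers had a median of 0.0645%, beside 0 in the others. Macrophage markers had 0.0170% beside 0.0177%, and nonclassical monocyte markers 0.0136% beside 0.0175%. The part of depth in what follows was not tested.

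The members not used to choose the granule-rich cells were also higher in them. In tumor Rab37 KO, Lcn2 stood at 11436 against 1747 CPM (6.54-fold), Chil3 at 1243 against 33.3 CPM (37.4-fold) and Cybb at 933 against 44.7 CPM (20.9-fold). All 3 passed the 1.5-fold limit, beside 21.1% of 8908 genes higher and 34.3% lower. The 69 cells held 84.4% of the Chil3 and 75.1% of the Cybb UMIs of neutrophil-like cells, and 48.7% of the Lcn2 UMIs. The same direction was seen in the other 3 libraries: Lcn2 was 13.3-fold, 17.5-fold and 10.6-fold higher, Chil3 20.2-fold, 90.8-fold and 59.1-fold, and Cybb 16.8-fold, 44.0-fold and 39.9-fold. In normal WT these Chil3 and Cybb values rest on 9 and 6 UMIs in 2 cells. Among neutrophil-like cells with at least 5 Ltf UMIs, 68 of 69 had at least 5 of Lcn2, 68 of Ngp and 66 of Camp, 55 of Chil3 and 50 of Cybb. The reverse did not hold, since 68 of 764 cells with at least 5 Lcn2 UMIs had as many of Ltf.

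The granule-rich cells of tumor Rab37 KO also differed from the others in companion genes. Of 11 specific granule companions 6 were higher, 0 lower and 2 not measured, with a median log2 ratio of 2.128 beside -0.212 over all genes. Olfm4 was 10.5-fold higher but lay in 11 of the 69 cells, Cd177 was 7.57-fold, the lysozyme gene Lyz2 6.76-fold and Mmp8 4.37-fold higher. Of 5 oxidase subunits 4 were higher, among them Ncf1 at 3.79-fold and Cyba at 2.13-fold. Of 7 azurophil companions 1 was higher, Serpinb1a at 27.2-fold, 1 was lower, Srgn at 5262 against 12865 CPM (ratio 0.409), and 2 were not measured. Of 7 granulocyte transcription factors, Cebpe, which codes for C/EBP epsilon, was higher at 129 against 13.1 CPM (9.88-fold, in 38 of the 69 cells) and 3 were lower, among them Cebpb at a ratio of 0.473. In normal Rab37 KO Cebpe was 26.8-fold higher in the granule-rich cells (16 against 19 UMIs, in 2 of 6 cells), and in normal WT it had 0 UMIs in the 2 granule-rich cells.

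Of 8 maturation genes 1 was higher and 5 were lower in these cells, with a median log2 ratio of -1.069. The cytokine gene Il1b was furthest lower, at 2370 against 10809 CPM (4.56-fold lower), followed by the chemokine gene Ccl6 (ratio 0.306), the G-CSF receptor gene Csf3r (0.394) and the chemokine receptor gene Cxcr4 (0.402). Retnlg was higher at 2.02-fold. Of 10 proliferation genes 1 was higher, 4 were lower and 4 were not measured, and the higher one, Mki67, rested on 5 against 15 UMIs. Clusters led by Mki67 stayed unnamed, so cells in them could not be counted as neutrophil-like, which limits this comparison. Among genes with at least 200 CPM in the granule-rich cells, leaving out Ltf, Camp and Ngp, which chose the cells, the largest ratios after Chil3, Serpinb1a and Cybb belonged to Adpgk (11.6-fold, a glucokinase gene), Olfm4, the surface antigen gene Ly6c2 (8.59-fold), Ifitm6 (7.92-fold), Aldh2 (7.92-fold) and Cd177. Jchain ranked above them, with 412 of its UMIs in 1 cell. The genes furthest the other way included those of the chemokines Ccl2 (8.15-fold lower), Cxcl1 (6.60-fold) and Cxcl3 (4.83-fold), followed within the top 10 by Fgl2, Marcksl1, Il1b, Ifitm1, Bcl2a1b, Egln3 and Ccrl2.

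**Figure D4:**
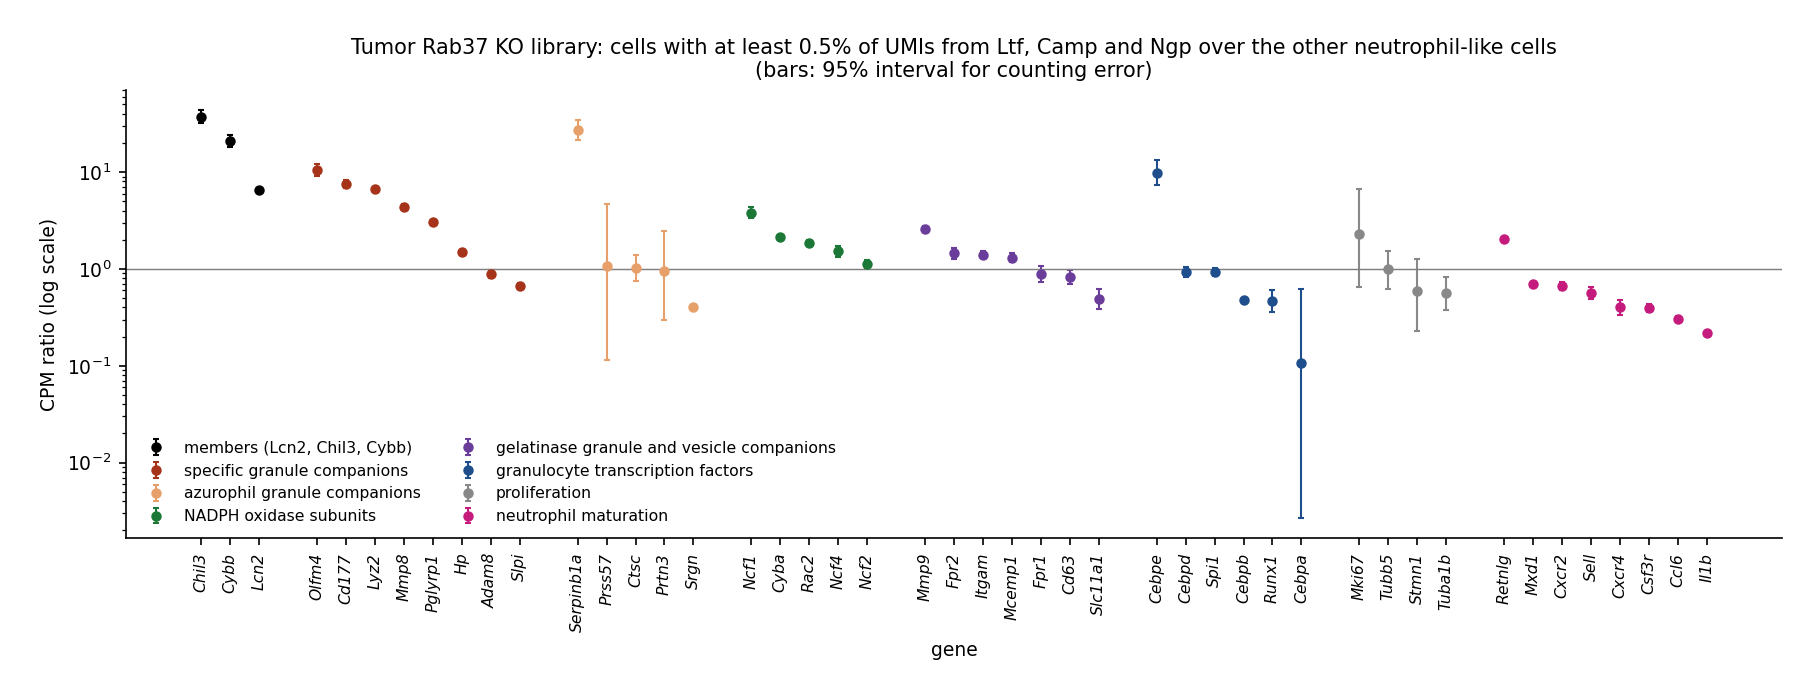
Ratio of CPM in the 69 granule-rich cells to that in the other 1224 neutrophil-like cells of tumor Rab37 KO (log axis, bars for the 95% counting interval), for 3 members and the listed companions with UMIs on both sides. Chil3, Cybb and Lcn2 lie above 1 with most specific granule and oxidase genes, and most maturation genes lie below 1.

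Outside neutrophil-like cells, Ltf had a source of its own in epithelial-like cells. In normal Rab37 KO, 1011 of the library's 1669 Ltf UMIs lay in 3 of 31 epithelial-like cells, which held 595, 256 and 160, against total depths of 76371, 51431 and 60093 UMIs. None of the 3 held a UMI of Camp, Ngp or Lcn2. They held 8951, 20050 and 10521 UMIs of Scgb1a1, the secretoglobin of airway club cells, and 13183, 1204 and 854 of Bpifa1, a secreted airway protein gene, both looked at after the cells had been found. In normal WT, 2 of 18 epithelial-like cells held 31 Ltf UMIs, 29 of them in 1 cell. Neutrophil-like cells therefore held only 34.8% of the Ltf UMIs of normal Rab37 KO, beside 60.2%, 70.7% and 75.7% in the other libraries. Each tumor library held 1 epithelial-like cell, so this source could not be followed there.

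In tumor, the other holders carried neutrophil markers too. In tumor Rab37 KO, 29 of the 537 cells of cluster 8, left unnamed between macrophage and classical monocyte markers, held 98.8% of that cluster's 7544 UMIs of Ltf, Camp and Ngp. In all 29, neutrophil markers made up 1% of UMIs or more (median 10.6%, beside 1.03% over the cluster) and a median depth of 32100 UMIs. Per 1000 UMIs of S100a8 and S100a9, cluster 8 held 5.11 of Ltf, 20.0 of Lcn2, 9.12 of Camp and 16.6 of Ngp, beside 5.66, 21.9, 11.1 and 18.1 in the neutrophil-like cells of that library. Nonclassical monocyte-like cells of the same library had 20239 UMIs of the 2 S100 genes but 4 of Ltf, 2 of Camp and 7 of Ngp, that is 0.198, 0.0988 and 0.346 per 1000, and 11.9 per 1000 of Lcn2. Cluster 21 was left unnamed because Mki67 was among its leading genes, and its best-scoring class of markers was alveolar macrophage. A cell of cluster 21 held 371 Ltf, 987 Lcn2, 1312 Camp and 1339 Ngp UMIs among 42480, with 36.6% from neutrophil markers and 11 UMIs of Mki67. In tumor WT, 4 of 144 macrophage-like cells held 99.3% of 598 UMIs of Ltf, Camp and Ngp, all 4 with at least 1% neutrophil markers and a median depth of 46465 UMIs. In tumor Rab37 KO, 8 of 126 macrophage-like cells held 96.0% of 379 such UMIs, and 3 of 30 cells of the unnamed cluster 32 held 85.3% of 95. All 8 and all 3 had at least 1% neutrophil markers, with median depths of 35968 and 33745 UMIs. Scrublet called none of these cells a doublet, and whether they hold RNA of more than 1 cell was not tested.

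**Figure D5:**
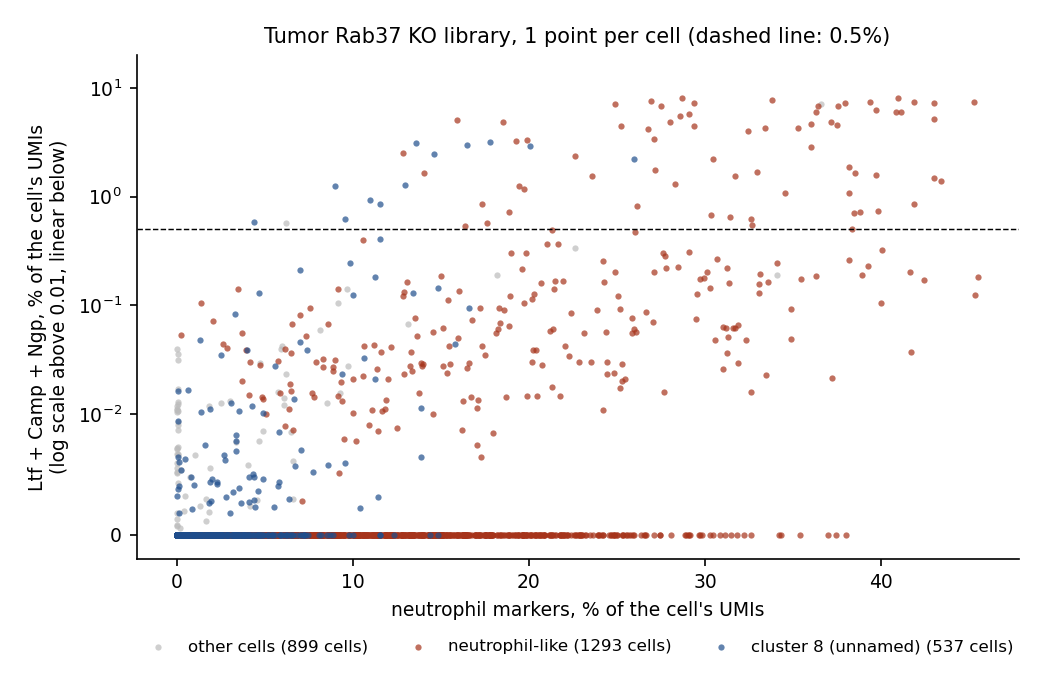
Every cell of tumor Rab37 KO by the percent of its UMIs from neutrophil markers (horizontal) and from Ltf, Camp and Ngp (vertical, log scale above 0.01 and linear below), for 1293 neutrophil-like, 537 cluster 8 and 899 other cells, with a dashed line at 0.5%. Cells above the line hold some neutrophil markers, and the neutrophil-like ones among them reach 8.07%.

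Elsewhere the specific granule genes were scarce. Single nonclassical monocyte-like cells held 16 Camp and 48 Ngp UMIs in normal WT, and 67 Ltf, 219 Camp and 156 Ngp UMIs in normal Rab37 KO. Neutrophil markers made up 24.9% and 17.8% of the UMIs of these cells, beside class medians of 0.0885% and 0.0594%. Whether they hold RNA of more than 1 cell was not tested. T-like, B-like and NK-like cells held at most 2 UMIs of Ltf, Camp and Ngp together in any library. Lcn2 reached further: macrophage-like cells stood at 8.92, 43.2, 225 and 256 CPM and nonclassical monocyte-like cells at 101, 240, 339 and 356 CPM, against 0.126 and 3.46 CPM in T-like cells of normal lung. In the nonclassical monocyte-like cells of normal lung S100a8 and S100a9 together stood at 10859 CPM in WT and 18245 CPM in Rab37 KO, and Lcn2 at 9.32 and 13.2 UMIs per 1000 of theirs, beside 8.67 and 12.3 in neutrophil-like cells. Neutrophil markers made up 1% of UMIs or more in 83 of the 300 nonclassical monocyte-like cells of normal WT and in 69 of the 235 of normal Rab37 KO. The part of neutrophil RNA in these Lcn2 levels was not tested. In tumor WT 1 cell held 59.2% of the macrophage-like Lcn2 UMIs. Epithelial-like cells of normal lung stood at 132 and 175 CPM, with Lcn2 in 38.9% and 35.5% of them. In tumor Rab37 KO, cluster 31 had 338 Lcn2 UMIs, 293 of them in 1 cell, and 274 per 1000 UMIs of the S100 genes, far from the 21.9 of neutrophil-like cells.

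Across 62 pairs of class and library with at least 20 cells, the profiles of the members (log2 of CPM + 10) were compared as a description, since classes of 1 library share its depth and free RNA. Camp and Ngp were the closest members (Pearson r = 0.963), with r = 0.833 for Lcn2 and Ngp, 0.815 for Ltf and Camp and 0.738 for Chil3 and Cybb, and 0.082 for Ltf and Chil3. The non-member nearest to Camp and to Ngp was Cebpe (r = 0.913 and 0.877), followed by Ly6g (0.827 and 0.877) and Mapk13 (0.766 and 0.812). Ltf was nearest to Chil1 (0.878), Mapk13 (0.775) and Cebpe (0.748), and Lcn2 to Mapk13 (0.889), Ifitm1 (0.883) and Cpne2 (0.878). The Ltf profile includes the epithelial-like cells of normal Rab37 KO, its highest unit at 2639 CPM, where 3 cells held all 1011 UMIs. Chil3 was nearest to Sort1 (0.910), Abcd2 (0.9) and Ms4a8a (0.895), and Cybb to Rassf4 (0.905), Gngt2 (0.884) and Trim25 (0.882). Elane and Mpo reached at most 4.37 and 7.03 CPM in any of these units and were not compared.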

How the data were processed

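Single-cell 3′ libraries (kit v2, per the labels' protocols) of 4 groups were analysed from the deposited UMI counts per gene and barcode, which carry no normalization and do not scale with gene length. Per the submitters' processing notes the genome was mm10. Per the file headers, software version 3.0.1 wrote the normal and 3.1.0 the tumor matrices, and an aligner is not named in the labels or headers. Every deposited barcode held at least 500 UMIs. The members and the lists (azurophil, specific and gelatinase granule companions, NADPH oxidase subunits, granulocyte transcription factors, proliferation, maturation, and markers of each class) were chosen with earlier results of these data known.

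Cells with 200 genes or more and 10% mitochondrial UMIs or less were clustered together (2000 variable genes without members, granule and oxidase lists, Rab37 and sex-linked genes; 30 components; 15 neighbours; Leiden resolution 1.0; seed 1). Each cluster was given the best-scoring class of markers if the mean log2 ratio over the other cells was at least 1, 3 markers were in 10% of its cells and under 25% were called doublets. Clusters led by 2 classes, by Mki67 or by Rhox5 stayed unnamed, a rule set after the clusters had been inspected. Scrublet called 179, 80, 3 and 4 doublets, which were kept and removed in an alternative. Its tumor calls (0.464% and 0.147%) are so few that it may not have worked there.

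UMIs were summed per class and library as CPM, with Poisson intervals. Ratios carry conditional binomial and shares Clopper-Pearson intervals, at the 95% level. A gene was called at 1.5-fold, and the calling step was checked on simulated counts. The text names the members, up to 4 genes per list with at least 50 CPM, the 3 genes nearest each member, and in granule-rich cells the 10 genes furthest up and down (200 CPM, 20 UMIs). Further genes of the listed companions with lower levels and the genes of single cells are named where the count rests on them. Promoters came from RefSeq, GRCm38.p6. Tools were Python 3.11.15, scanpy 1.11.5, scipy 1.17.1, leidenalg 0.10.2 and matplotlib 3.10.9. The alternatives changed the filters, clustering, naming, limits, the CPM summary and the cells left out.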

Additional observations from a re-analysis of the deposited data

Results flagged for a closer look

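The ratio of Rab37 KO to WT for Lcn2 in neutrophil-like cells lay on opposite sides of 1 in the 2 tissues, at 1.61 in normal lung and 0.934 in tumor, and the tumor ratio was 0.580 of the normal one. The tumor ratio lay above 1 under 3 of 10 alternatives, up to 1.36 without the 3 richest cells of each library, and the normal ratio went down to 1.23 without the granule-rich cells. The ratio of tumor to normal lung for Chil3 lay on opposite sides of 1 in the 2 genotypes, at 2.58 in WT and 0.892 in Rab37 KO, and the second was 0.346 of the first. The interval of the Rab37 KO ratio, 0.789 to 1.01, includes 1, and the ratio stayed below 1 under 4 of 10 alternatives, with a highest value of 2.08. The WT ratio went down to 0.768 without the 3 richest cells. Both were singled out because the directions were opposite in the values given first, and neither difference was tested, with 1 library per group.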

How the results depend on the processing

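No paired analysis was possible because each group was 1 library and the labels give no replicate numbers. Of 96 alternative counts of members, 80 stayed within 1.5 times the first count, and 23 of 258 alternative ratios crossed 1, 11 of them from a ratio past the 1.5-fold limit. The following 2 alternatives were chosen after seeing the data. The first of them left out neutrophil-like cells in which Ltf, Camp and Ngp made up 0.5% of UMIs. The number of members higher then went from 6 to 0 and lower from 0 to 1 for normal Rab37 KO over WT. Ltf was lower at 0.218 on 3 against 8 UMIs, and Camp stood at 0.0829 on too few UMIs to be measured (1 and 7). For tumor Rab37 KO over WT it left 1 higher and 2 lower, Ltf at 0.656 (9 UMIs in WT) and Mpo at 0.157, with Ngp turned to 0.712. For WT tumor over normal it left 3 higher, with 0.830 for Chil3 and 0.922 for Cybb, and in Rab37 KO it gave 1 lower, Chil3 at 0.595. The second counted cluster 8 as neutrophil-like. It left 2 higher for tumor Rab37 KO over WT. For Rab37 KO tumor over normal it left 2 higher and 1 lower, Camp at 0.626, with Lcn2 turned to 0.999 and Ngp to 0.9. Leaving out the 3 richest cells of each member gave 0 lower for tumor Rab37 KO over WT and 3 higher for WT tumor over normal, with 0.768 for Chil3 and 0.999 for Cybb. The mean of the cells' own CPM also gave 3 higher there, with 0.929 for Cybb. A 2-fold limit left 2 higher for tumor Rab37 KO over WT and 2 for Rab37 KO tumor over normal. With no UMI minimum, 1 member was lower for normal Rab37 KO over WT and 1 for WT tumor over normal. All alternative counts, here and above, are given without the share over all genes under the same setting, so they cannot be set against it. The cause of these changes was not tested, except that the first alternative takes out UMIs of Ltf, Camp and Ngp by construction. All 28 alternatives for the share of granule-rich cells kept it within its counting interval. Depth limits Elane and Mpo, with at most 38 UMIs in a library.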
